A study of Mus musculus with 19 samples.

Results

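In single preimplantation embryos, 10 genes known to be imprinted in the mouse were followed, 10 of the 53379 gene rows in the deposited count table, matched by gene symbol. They are H19, Igf2r, Phlda2 and Ascl2, known as maternally expressed, and Snrpn, Impact, Mest, Peg3, Peg10 and Plagl1, known as paternally expressed. The embryos numbered 19, all collected 96 hours after insemination and all grown in culture from in vitro fertilisation, and the strain label was B6D2F1 throughout. The Alyref cross (sperm and oocytes of heterozygous mice, Alyref+/-) gave 2 morulae labelled KO, 3 labelled non-KO, and 3 blastocysts, all non-KO. From the Gabpb1 cross (Gabpb1+/- on both sides) came 3 morulae labelled KO, 2 labelled non-KO, and 3 blastocysts, again all non-KO, and 3 WT blastocysts came from WT mice. KO status was called by the submitters from the absence of reads over the deleted region in the same libraries. Non-KO embryos were WT or heterozygous and could not be separated further. Each embryo was 1 library of polyA RNA, and no WT morulae were analysed here. Morulae and blastocysts were of the same age, so stage differences below do not follow development over time. Where a gene is said to fall or rise between stages, it was lower or higher in blastocysts than in morulae. Stage and pace of development cannot be told apart.

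Genomic imprinting marks a gene by DNA methylation laid down in the egg or sperm, so that one parental copy is transcribed and the other is silent. After fertilisation the zinc finger protein ZFP57 and its partner TRIM28 bind marked control regions and protect that methylation while the rest of the genome is demethylated. Imprinted genes are known for dosage control of fetal and placental growth, and culture of embryos is known to be able to disturb them. Counts per gene do not tell the parental copies apart, so what follows is the total transcript of each gene and not its imprinting. ALYREF, product of the gene deleted in the first cross, is an adaptor for mRNA export. GABPB1 is a subunit of the ETS-family transcription factor GABP.

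In mm10 coordinates, 5 members lie on chromosome 7: Peg3 at chr7:6703892-6730431, H19 at chr7:142575529-142578143, Ascl2 at chr7:142966829-142969264 and Phlda2 at chr7:143501545-143503150 in the distal cluster, and Snrpn at chr7:59982495-60140219. Peg10 (chr6:4747306-4760517) and Mest (chr6:30723547-30748465) are on chromosome 6, Igf2r is at chr17:12682406-12769664 and Plagl1 is at chr10:13060504-13131694. Snrpn shares 27.3% of its exon bases with Gm38393 and 10% with Snurf on the same strand. Mest shares 23.1% of its exon bases with Copg2 on the opposite strand. How reads in shared exons were assigned, and whether strand was used, is not given in the sources used here, so Mest and Copg2 reads cannot be told apart there.

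RefSeq promoter windows (GRCm38.p6, the 250 bases upstream of an annotated start) were matched for 7 of the 10 members, giving 12 windows. Windows on the chromosome that holds Impact were left out of the search, and none was matched for H19 or Peg10. Windows of 3 members are shown: Mest and Plagl1 because they are the members with a match to the word below, and Phlda2, without one, because it fell between stages in one cross. Capitals mark matches to TGCCGC or its reverse complement GCGGCA, the word that ZFP57 is known to read when methylated. Each is written 5′ to 3′ on the gene's own strand.
Mest, chr6:30737800-30738049 (+): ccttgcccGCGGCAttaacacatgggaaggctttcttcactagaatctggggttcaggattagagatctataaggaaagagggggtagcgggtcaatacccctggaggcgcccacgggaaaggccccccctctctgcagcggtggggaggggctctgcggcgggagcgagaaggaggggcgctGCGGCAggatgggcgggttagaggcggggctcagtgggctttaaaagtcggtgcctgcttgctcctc
Plagl1, chr10:13090582-13090831 (+): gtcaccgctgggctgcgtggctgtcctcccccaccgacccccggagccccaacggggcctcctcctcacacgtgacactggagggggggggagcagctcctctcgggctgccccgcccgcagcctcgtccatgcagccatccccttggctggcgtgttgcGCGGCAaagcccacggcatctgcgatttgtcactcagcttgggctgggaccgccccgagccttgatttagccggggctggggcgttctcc
Phlda2, chr7:143502525-143502774 (-): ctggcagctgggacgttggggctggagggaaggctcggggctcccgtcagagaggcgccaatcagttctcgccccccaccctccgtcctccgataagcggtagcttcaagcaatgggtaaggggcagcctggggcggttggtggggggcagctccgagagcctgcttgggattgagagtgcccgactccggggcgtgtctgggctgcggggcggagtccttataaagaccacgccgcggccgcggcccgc
The Mest window shown held 2 matches and 14 CpG, as did another that overlaps it nearly whole, while the third Mest window, at chr6:30733256-30733505, held 7 CpG and no match. The Plagl1 window held 1 match and 19 CpG, and the Phlda2 window 21 CpG and no match. In all, 3 of the 12 member windows, from 2 of the 7 genes, held TGCCGC on either strand, beside 8.68% of all 32851 promoter windows, whose median was 6 CpG. The word CCGGAAG, a core of GABP and other ETS sites, was in 6.91% of all windows on either strand and in 0 of the 12 member windows. Impact was not among the genes searched for it. Igf2r had 27 CpG, Ascl2 19 and Peg3 8, while the Snrpn windows had 2 to 4, and none of these held TGCCGC. A match is a string of letters in a window and not a bound site.

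Library depth ran from 7486125 to 31536282 gene counts (median 13633603), with 0.501% to 1.95% of counts from ERCC spike-in RNA and 2.51% to 5.74% from mitochondrial genes. Alyref was at 47.8 and 58.5 CPM (counts scaled to the TMM-adjusted library total) in its 2 KO morulae, below the 161 to 291 CPM of its non-KO morulae. Gabpb1 was at 78.2, 259 and 151 CPM in its KO morulae and at 93.8 and 83.3 CPM in its non-KO morulae, so the count of the whole gene does not check that label. Of 39262 genes with any count, 18410 had an FPKM of 1 or more in at least 2 embryos, on library totals without TMM, and were tested with edgeR's quasi-likelihood test, adjusted by the Benjamini-Hochberg method over all of them. A gene is called below when its adjusted p was under 0.05. Nothing in the labels says which embryos share a litter, so p-values measure the spread between single embryos.

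All 10 members passed that filter, some of them through very few embryos. H19 reached an FPKM of 1 in 2 blastocysts and no morula. Plagl1 reached it in the 2 Gabpb1 non-KO morulae alone, Ascl2 in those 2 and 1 Gabpb1 non-KO blastocyst, Peg10 in 1 of those morulae and 1 WT blastocyst, and Peg3 in the 3 Gabpb1 KO morulae. Genes that pass through the group where they are high had to be high there. Counts of members in the comparisons below are therefore descriptions.

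Per length, Snrpn stood far above the other members. Its mean FPKM over 19 embryos, on TMM-adjusted totals here and below, was 136 ± 49.1 (SD, n = 19), higher than 95.3% of the tested genes. Impact followed at 8.89, Mest at 3.17, Igf2r at 2.94 and Phlda2 at 2.41 FPKM. Peg3 (0.51), Plagl1 (0.448), Ascl2 (0.403), H19 (0.342) and Peg10 (0.261) were below 1 FPKM. Within each of these last 2 sets the embryo ranges overlapped, so their order is not firm. In the plot of levels per length the group means of Snrpn lie apart from those of the other members.

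**Figure D1:**
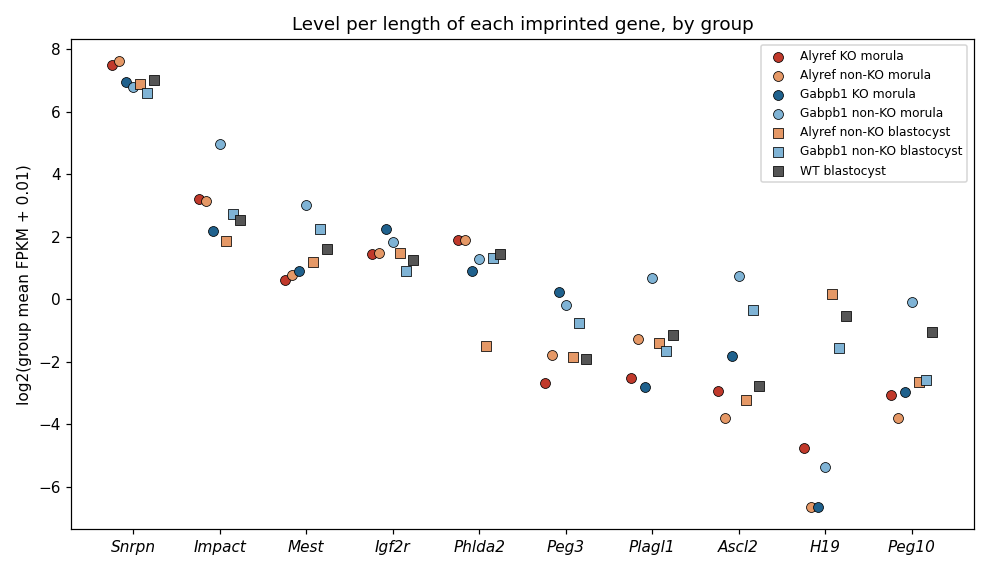
Level per length of the 10 imprinted genes: each point is the mean FPKM of 1 of the 7 groups, on the scale log2(FPKM + 0.01), with circles for morulae and squares for blastocysts. Snrpn lies above the other members in every group, and the group means of H19 spread most because morulae are at or near 0.

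The members also varied between embryos of one group. edgeR's biological coefficient of variation was above the trend for genes of like abundance in 7 of 10 members, against 32.4% of all tested genes. It was lowest for Snrpn (0.255) and Igf2r (0.256) and highest for Ascl2 (1.27), Peg10 (1.17), H19 (1.12) and Plagl1 (1.08), while the median over tested genes was 0.345. The 4 most variable members are also low in counts and passed the filter through only 2 or 3 embryos. Low genes that pass in that way had to be uneven between embryos. The 7 of 10 is therefore not read as a trait of imprinted genes. The plot of CPM by embryo shows this spread within groups.

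**Figure D2:**
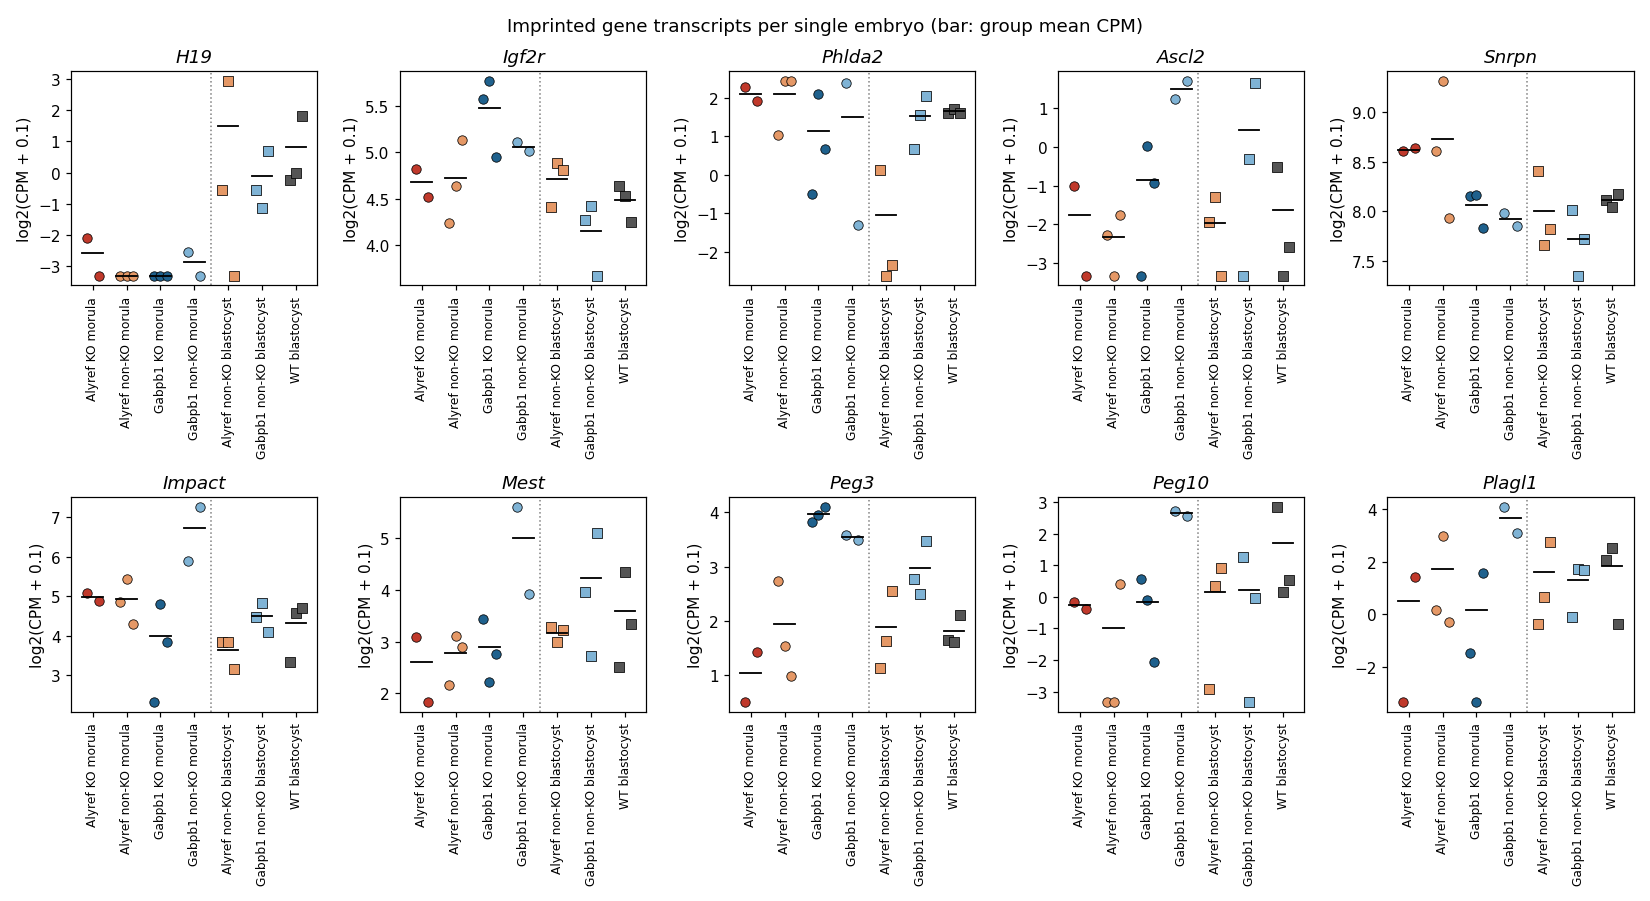
CPM of each imprinted gene in every embryo, as log2(CPM + 0.1), with a bar at the group mean and a dotted line between morulae (circles) and blastocysts (squares). H19 is at 0 in 8 of 10 morulae, and the Gabpb1 non-KO morulae hold the highest embryo for Impact, Mest, Ascl2 and Plagl1.

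H19, a long non-coding RNA made from the maternal copy next to Igf2, was a transcript of the blastocysts. It had 0 counts in 8 of the 10 morulae and 1 count in each of the other two, Alyref KO morula 1 and Gabpb1 non-KO morula 1. The Alyref non-KO blastocysts had 18, 124 and 0 counts, the Gabpb1 non-KO blastocysts 7, 3 and 21, and the WT blastocysts 11, 14 and 51. So 8 of 9 blastocysts held at least 3 counts and no morula held more than 1, and Alyref non-KO blastocyst 3 was like a morula. Blastocyst levels ran from 0 to 7.69 CPM, and 3 counts, the limit that a count of 0 allows, correspond to 0.0967 to 0.396 CPM depending on the embryo. In the Alyref cross, summed over groups, blastocysts were at least 37.5-fold higher than non-KO morulae (142 against 0 counts, floor of 3 counts over the group). In the Gabpb1 cross the ratio was 24.6 (exact 95% counting interval 4.1 to 1002, 31 counts against 1). These intervals cover counting error only.

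H19 was called higher in non-KO blastocysts of both crosses together than in non-KO morulae (adjusted p = 0.0489) and in the Alyref cross alone (adjusted p = 0.0330), but not in the Gabpb1 cross alone (adjusted p = 0.777). The difference between the crosses was itself not called (adjusted p = 0.641). Both calls were near the threshold. H19 passed the filter through 2 blastocysts and no morula, so it had to be high in those blastocysts. With both crosses the adjusted p ran from 0.0301 to 0.19 when 1 embryo was left out, and it stayed under 0.05 in 2 of 11 such fits, those without Alyref non-KO morula 3 and without Alyref non-KO blastocyst 3. In the Alyref cross it stayed under 0.05 in 2 of 6, again those without these embryos. Without Alyref non-KO blastocyst 2, the embryo with 124 counts, the log2 estimates fell from 6.26 to 4.75 (both crosses, adjusted p = 0.0881) and from 8.30 to 5.27 (Alyref cross, adjusted p = 0.127). With the replicate numbers as a block the adjusted p was 0.0852 for both crosses and 0.0592 for the Alyref cross.

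Igf2r, the maternally expressed receptor that carries IGF2 to the lysosome and so limits growth, was read in every embryo. Morulae had 18.8 to 54.6 CPM (median 31.4) and blastocysts 12.6 to 29.3 CPM (median 21.3), and these ranges overlapped. The 3 Gabpb1 KO morulae were at 47.7, 54.6 and 30.8 CPM beside 34.5 and 32.1 CPM in their non-KO morulae. Between stages in both crosses the log2 difference was -0.46 (SE 0.21, adjusted p = 0.188), so no change was called.

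Phlda2, a pleckstrin-homology protein that restrains placental growth from the maternal copy, was low in the Alyref non-KO blastocysts. They had 0.999, 0.062 and 0.0949 CPM (31, 1 and 1 counts), while the 3 Alyref non-KO morulae had 1.95, 5.31 and 5.37 CPM, with no overlap. It fell by 3.25 on the log2 scale (SE 0.99, adjusted p = 0.0420). Gabpb1 non-KO blastocysts (1.48, 2.84 and 4.01 CPM) and WT blastocysts (2.95, 3.2 and 2.96 CPM) lay above all 3 Alyref non-KO blastocysts. The test of Alyref-cross against WT blastocysts was not passed (adjusted p = 1), nor was the difference in stage change between crosses (adjusted p = 0.333). Gabpb1 non-KO morulae were at 5.12 and 0.304 CPM, a pair farther apart than the stages. The call in the Alyref cross was lost in 4 of 6 fits with 1 embryo left out, those without morula 1 (0.0597) or 2 (0.126) and without blastocyst 2 (0.141) or 3 (0.12). Without blastocyst 1 the log2 estimate was -5.63, and with the replicate block the adjusted p was 0.0636.

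Ascl2, a basic helix-loop-helix factor of trophoblast, was near the detection limit, with 0 counts in 6 of 19 embryos. The Gabpb1 non-KO morulae had 2.28 and 3.19 CPM (32 and 42 counts), and Gabpb1 non-KO blastocyst 3 had 3.06 CPM. Every other embryo was at 0.926 CPM or less. No comparison called it.

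Among the paternally expressed members, Snrpn encodes SmN, a core protein of the spliceosome. It was high in every embryo, from 163 to 639 CPM. Alyref non-KO morulae spread from 245 to 639 CPM and blastocysts of all 3 groups from 163 to 339 CPM. Between stages its log2 difference was -0.46 (SE 0.21, adjusted p = 0.188), and without Alyref non-KO morula 3 it was -0.60 (adjusted p = 0.0337). Snurf, which shares its transcript, had group means from 26.8 to 50.8 CPM. The Spearman correlation of Snrpn with Snurf over the 19 embryos was 0.949, and the 2 genes share exon bases.

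Impact (chr18:12972252-12992948 in mm10), a protein that binds GCN1 and keeps the stress kinase GCN2 in check, had the clearest group differences. The Gabpb1 non-KO morulae had 59.0 and 154 CPM, the 2 highest of all 19 embryos. The Gabpb1 KO morulae had 4.91, 28.0 and 14.2 CPM. No KO value reached the lower non-KO value. Impact fell by 2.76 on the log2 scale in Gabpb1 KO morulae (SE 0.59, adjusted p = 0.0338). Alyref KO morulae (33.7 and 29.3 CPM) lay within the range of the Alyref non-KO morulae (28.9, 43.4 and 19.6 CPM). The log2 difference of the 2 KO effects was -2.81 (SE 0.82), with an adjusted p of 0.111 by edgeR and 0.0217 by DESeq2.

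The call for the loss of Gabpb1 depended on which embryos were compared. Without morula 2 of that pair the log2 estimate was -1.91 (adjusted p = 0.318), with the lone morula assumed to vary like the other groups, and without KO morula 3 it was -2.71 (adjusted p = 0.0818). With all 5 non-KO morulae, from either cross, as the comparison it was -1.87 (adjusted p = 0.0734), and from the 5 compared embryos alone -2.77 (adjusted p = 0.331). Over the 12 other settings the sign was the same and the adjusted p was under 0.05 in 8.

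Impact was also lower in blastocysts. Alyref non-KO blastocysts had 14.2, 14.3 and 8.82 CPM, Gabpb1 non-KO blastocysts 22.2, 28.5 and 16.9 CPM, and WT blastocysts 9.98, 23.9 and 25.8 CPM. All blastocysts were at 28.5 CPM or below, and 4 of 5 non-KO morulae were above that. Over both crosses Impact fell by 1.77 on the log2 scale (SE 0.40, adjusted p = 0.0280). The estimate was lower in blastocysts in each cross, by 1.30 (adjusted p = 0.112) and 2.24 (adjusted p = 0.438) on the log2 scale, with neither called alone. The call over both crosses was lost in 7 of 11 fits with 1 embryo left out. These were the fits without Alyref non-KO morula 2 (0.0654), Gabpb1 non-KO morula 2 (0.156), any of the Alyref non-KO blastocysts (0.0651, 0.0647 and 0.057) or Gabpb1 non-KO blastocyst 1 (0.0649) or 3 (0.0655).

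Mest, a hydrolase-fold protein that promotes growth, had 48.8 and 15.1 CPM in the Gabpb1 non-KO morulae and 3.47 to 10.8 CPM in the other 8 morulae. Gabpb1 KO morulae were at 10.8, 4.54 and 6.67 CPM, below both non-KO embryos. The log2 difference was -2.13 (SE 0.67), not called by edgeR (adjusted p = 0.111) and called by DESeq2 (adjusted p = 0.0267). Blastocysts ran from 5.63 to 34.4 CPM, and Gabpb1 non-KO blastocysts alone covered 6.51 to 34.4 CPM. Without Gabpb1 non-KO morula 1 the log2 estimate was -1.05 (adjusted p = 0.551).

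Plagl1, a zinc finger factor that regulates other imprinted genes, followed the same order in these groups. The Gabpb1 non-KO morulae had 16.8 and 8.37 CPM, the 2 highest of 19, and the KO morulae 0.258, 0 and 2.84 CPM. The log2 difference was -3.56 (SE 1.48, adjusted p = 0.212), not called. Plagl1 passed the filter through those 2 non-KO morulae alone, so it had to be high in them. Elsewhere Plagl1 ranged from 0 to 7.76 CPM, with Alyref non-KO morulae at 1.03, 7.76 and 0.712 CPM.

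Peg10, a protein derived from a retrotransposon and needed for the placenta, had 6.55 and 5.78 CPM in the Gabpb1 non-KO morulae and 1.38, 0.833 and 0.142 CPM in the KO morulae. WT blastocyst 1 was higher, at 7.1 CPM. Alyref non-KO morulae had 0, 0 and 19 counts. It was not called in any of the 10 comparisons, and every other embryo was at 2.31 CPM or less.

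Peg3, a zinc finger protein with a role in growth and maternal behaviour, had its highest levels in Gabpb1 KO morulae. All 8 Gabpb1-cross embryos had 5.57 to 17.1 CPM. The 8 Alyref-cross embryos had 1.32 to 6.57 CPM and the WT blastocysts 2.94 to 4.24 CPM, so the ranges of the 2 crosses overlapped. Gabpb1 KO morulae (14.0, 15.4 and 17.1 CPM) were above their non-KO morulae (11.95 and 11.1 CPM). Comparing the crosses in their non-KO morulae, the log2 difference was 1.61 (SE 0.50), with an adjusted p of 0.0920 by edgeR and 0.0269 by DESeq2. Between Gabpb1-cross and WT blastocysts the groups did not overlap and the adjusted p was 0.800. Cross and any difference in the handling of the crosses cannot be told apart.

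Set against all genes, the loss of Alyref called 0.228% of tested genes and 0 of 10 members by edgeR. None of the members had an unadjusted p under 0.05 (lowest adjusted p 0.550). DESeq2 called 502 genes and 0 members. Groups without overlap held 24.9% of tested genes and 0 members. The approximate 95% interval of the log2 difference was -1.24 to 1.32 for Impact, -0.79 to 0.69 for Snrpn and -0.72 to 0.64 for Igf2r. Differences within those intervals could not be told from 0, and for the low members the intervals were wider.

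The loss of Gabpb1 called 1.65% of tested genes and 1 of 10 members, Impact. In all, 3 members had an unadjusted p under 0.05 (Impact, Mest and Plagl1), against 18.9% of tested genes. Of the members, 6 did not overlap between groups, against 32.2% of tested genes: Impact, Mest, Plagl1, Peg10 and Ascl2 were lower and Peg3 higher in the KO morulae. The 5 lower members are read against the same 2 non-KO embryos. Of the 6, 4 passed the filter through embryos compared here: Plagl1 and Ascl2 through both non-KO morulae, Peg10 through 1 of them, and Peg3 through the 3 KO morulae alone. They had to be high in those embryos, so nothing is read from the count of 6. The same holds for the count of 3 above, which includes Plagl1. The difference of the 2 KO effects called 0.907% of tested genes and 0 members by edgeR. At an unadjusted p under 0.05 there was 1 member, against 16.8% of tested genes.

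Markers of trophectoderm were summed in the same morulae. Their summed level over 14 genes was 4584 and 5851 CPM in the Gabpb1 non-KO morulae, 734 to 3944 CPM in the Gabpb1 KO morulae and 1307 to 2926 CPM in the Alyref-cross morulae, with none of the 14 at 0 counts in a whole group. Of the 14 genes, 12 had an estimate below 0 and 2 above for the loss of Gabpb1. An unadjusted p under 0.05 was found for 4, against 18.9% of tested genes, and 1 was called (Cldn4, lower), against 1.65%. Summed epiblast markers (12 genes) were 449 and 762 CPM in the Gabpb1 non-KO morulae and 725 to 989 CPM in the KO morulae. Summed primitive endoderm markers (9 genes, up to 1 at 0 counts in a whole group) were 717 and 775 CPM in the Gabpb1 non-KO morulae and 287 to 744 CPM in the KO morulae. Of these 9 genes, 6 had an estimate below 0 for the loss of Gabpb1 (median log2 difference -1.34), 2 had an unadjusted p under 0.05 and none was called. The part of these markers in the member differences was not tested. In whole embryos, fewer cells of a type and less RNA per cell cannot be told apart.

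**Figure D3:**
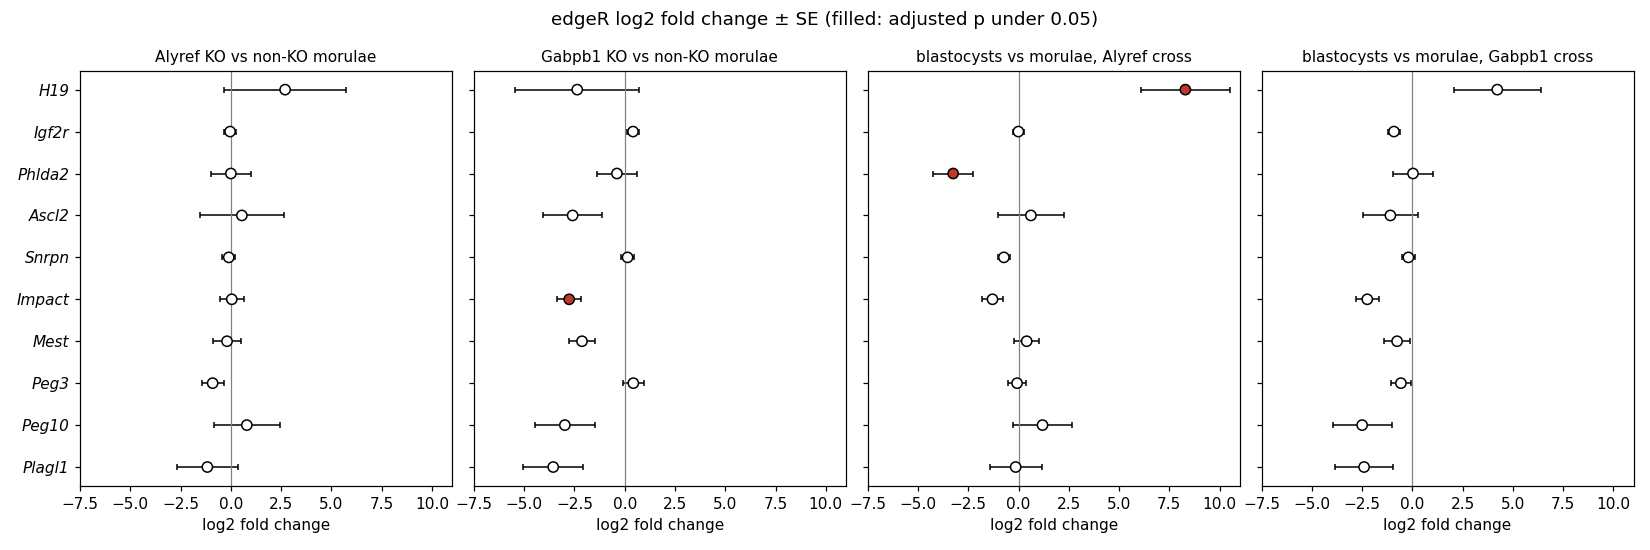
edgeR log2 fold change (first-named minus second-named group) ± SE for the 10 imprinted genes in 4 comparisons, with filled points where the adjusted p was under 0.05. The filled points are Impact for the loss of Gabpb1, and H19 and Phlda2 for the stage difference in the Alyref cross.

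Between non-KO blastocysts and morulae of the same age, both crosses together called 4.36% of tested genes and 2 of 10 members. H19 was higher and Impact lower in blastocysts. No member separated the stages without overlap, against 4.56% of tested genes. The Alyref cross alone called 13% of tested genes and 2 members (H19 higher, Phlda2 lower). H19 passed the filter through blastocysts alone and so had to be high in them. Nothing is therefore read from these counts of members called. The Gabpb1 cross alone called 0.0% of tested genes and 0 members by edgeR. There, 2 members had an unadjusted p under 0.05 (Igf2r and Impact), against 6.72% of tested genes. DESeq2 called 57 genes there, Impact among them. The test of a different stage change in the 2 crosses called 0.00543% of tested genes and 0 members by edgeR. By that test 2 members had an unadjusted p under 0.05, against 13.8% of tested genes. DESeq2 called 336 genes and 0 members for the same difference.

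Summed trophectoderm markers were 6080 to 9676 CPM in all blastocysts, above every morula. Summed markers of cumulus cells (15 genes, 5 to 9 of them at 0 counts in a whole group) were 15.8 to 38.2 CPM in morulae and 5.38 to 12.3 CPM in blastocysts, and Foxl2, a defining granulosa gene, had 0 to 8 counts per embryo. Of the 2 cumulus markers tested, 1 was called over both crosses: Hsd17b1 fell by 2.44 on the log2 scale (adjusted p = 0.0151). In the Alyref cross, Hsd17b1 and Amhr2 were both called lower in blastocysts (adjusted p = 0.0141 and 0.0402). Summed oocyte markers (12 genes, up to 2 of them at 0 counts in a whole group) were 28.1 to 145 CPM in morulae and 85.6 to 189 CPM in blastocysts. Of the 3 oocyte markers tested, 2 went against that sum and were called lower in blastocysts over both crosses: Zp3, of the egg coat, fell by 3.12 (adjusted p = 0.0151) and Padi6 by 1.69 (adjusted p = 0.0474) on the log2 scale. Ooep, the third, made up most of the sum in blastocysts, with group means of 9.94 to 63.6 CPM in morulae and 105 to 148 CPM in blastocysts. Summed primitive endoderm markers were 287 to 791 CPM in morulae and 763 to 1511 CPM in blastocysts. Their part in the stage differences was not tested.

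When the crosses were compared in their non-KO morulae, 1.86% of tested genes and 0 members were called by edgeR. Of the members, 6 had an unadjusted p under 0.05, against 22.4% of tested genes, 5 of them higher in the Gabpb1 cross (Peg3, Peg10, Mest, Ascl2 and Impact) and Snrpn lower. Peg3, Peg10 and Ascl2 had passed the filter wholly or partly through Gabpb1-cross embryos. DESeq2 called 3 of these (Impact, Mest and Peg3), and 1709 genes over all, against 342 by edgeR. Both Alyref-cross and Gabpb1-cross blastocysts were set against the same WT blastocysts. Each comparison called 0.0% of tested genes (the Alyref cross 0.0%, the Gabpb1 cross 0.0%) and 0 members by edgeR. DESeq2 called 15 genes for the Alyref cross and 42 for the Gabpb1 cross, with 0 members in either. By edgeR, 1 member each had an unadjusted p under 0.05 (Phlda2 and Peg3), against 2.94% and 6.10% of tested genes.

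By rank over the 19 embryos, members resembled one another weakly. The Spearman correlation between 2 members ran from -0.497 (H19 and Igf2r) to 0.479 (Phlda2 and Impact), and all members share libraries and depth. Among 8368 other genes with a mean FPKM of 5 or more, the gene most like Mest was Cdip1 (0.914), the one most like H19 was Gm26642 (0.903), then Ndrg1 (0.90), and the one most like Impact was Gm15751 (0.856). Phlda2 was most like Aatf (0.84) and Igf2r most like Whamm (0.798). Plagl1 had no gene above 0.72 (Zfp995). H19 ranks rest on 9 embryos tied at 0 counts.

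Other imprinted genes were read from lists. Of 35 further maternally expressed genes, 19 were tested. The loss of Alyref called 0 of them, the loss of Gabpb1 called 1 (lower), and the stage comparison over both crosses called 3 (2 higher, 1 lower). Over all tested genes these comparisons called 0.228%, 1.65% and 4.36%. The list's median log2 difference was -0.14 for the loss of Gabpb1 and -0.06 for stage, beside 0.06 and -0.02 over all tested genes. Osbpl5, a lipid-transfer protein gene of the distal chromosome 7 cluster near Phlda2, was the gene lower in Gabpb1 KO morulae (5, 0 and 0 counts against 38 and 89, adjusted p = 0.0470).

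Osbpl5 had 0 counts in all 3 Alyref non-KO morulae and 337, 280 and 78 counts in the Alyref non-KO blastocysts (adjusted p = 0.0076), and 47, 45 and 192 counts in the Gabpb1 non-KO blastocysts. Over both crosses its stage difference was called in 16 of 17 other settings, the exception being without Gabpb1 non-KO morula 2 (adjusted p = 0.085). Its call for the loss of Gabpb1 held in 4 of 12 settings and in 1 of 5 fits with 1 embryo left out, and with all 5 non-KO morulae as the comparison the adjusted p was 0.882. Ago2, a core protein of RNA silencing, fell by 0.88 on the log2 scale between stages (SE 0.24, adjusted p = 0.0495). Dhcr7, of cholesterol synthesis, rose by 0.81 (SE 0.21, adjusted p = 0.0405). These 2 calls held in 4 and 6 of 17 other settings. Copg2, the neighbour that overlaps Mest, rose from 14.1 to 37.4 mean CPM between stages in the Alyref cross (adjusted p = 0.0249), a call kept in 6 of 12 other settings and lost without morula 1 or 2 or blastocyst 1 or 2 and with ERCC scaling (adjusted p = 0.634).

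Of 30 further genes listed as paternally expressed, 29 were in the table and 12 were tested. None was called for the loss of Alyref, 1 for the loss of Gabpb1 and 1 for stage over both crosses, both lower. Over all tested genes 0.228%, 1.65% and 4.36% were called. The list medians for the loss of Gabpb1 and for stage were -0.46 and -0.30 on the log2 scale. Pon2, a paraoxonase gene of the Peg10 cluster whose place on this list is uncertain, had 5.85, 3.79 and 8.51 CPM in Gabpb1 KO morulae against 64.6 and 95.2 CPM (log2 difference -3.72, SE 0.86, adjusted p = 0.0443). That call was lost in all 5 fits with 1 embryo left out (adjusted p 0.0531 to 0.224). In the Alyref cross, Pon2 was called higher in blastocysts than in non-KO morulae (mean 44.6 against 7.40 CPM, adjusted p = 0.0408). That stage call was kept in 5 of 12 other settings. Sgce, a sarcoglycan gene beside Peg10, fell by 2.21 on the log2 scale between stages over both crosses (SE 0.53, adjusted p = 0.0337), a call kept in 8 of 17 other settings. Airn, the paternal non-coding RNA that silences Igf2r, had 0, 0 and 4 counts in Alyref non-KO morulae and 38, 58 and 32 counts in the blastocysts of that cross (adjusted p = 0.0198), a call kept in 7 of 12 other settings and lost without morula 1 or 2 or blastocyst 2. WT blastocysts had 75, 68 and 27 Airn counts.

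Of 13 genes of non-canonical imprinting, where the maternal copy is silenced by H3K27 methylation in place of DNA methylation, 11 were tested and 0 were called in any of the 10 comparisons by edgeR. At an unadjusted p under 0.05 there were 3 of 11 for each KO and 3 of 11 for stage over both crosses, beside 12.1% of tested genes for Alyref, 18.9% for Gabpb1 and 24.5% for stage. Slc38a4, an amino acid transporter and the highest of them per length (mean 48.6 FPKM), had 220 and 303 CPM in Gabpb1 non-KO morulae and 149, 82.0 and 116 CPM in the KO morulae.

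Of 23 factors that set or keep imprints, 21 were tested. Dppa3, which protects maternal methylation in the zygote, was the highest per length (mean 3176 FPKM) and fell by 0.75 on the log2 scale between stages (SE 0.20, adjusted p = 0.0499), a call kept in 4 of 17 other settings. Suz12, a Polycomb repressive complex subunit, was the 1 factor called for the loss of Gabpb1, which called 1.65% of tested genes. It had 224, 263 and 205 CPM in KO morulae against 97.9 and 87.2 CPM, a rise of 1.32 (SE 0.30, adjusted p = 0.0408), kept in 5 of 12 settings. Suz12 was also called lower in Gabpb1 than in Alyref non-KO morulae (log2 difference -1.21, edgeR adjusted p = 0.0496). Its mean was 92.6 CPM in Gabpb1 non-KO, 231 CPM in Gabpb1 KO and 214 CPM in Alyref non-KO morulae. In the Alyref cross, Zfp445, Dppa3 and Eed were lower and Setdb1 higher in blastocysts (adjusted p 0.0248, 0.0152, 0.0178 and 0.0320). Each of these 4 calls was lost without Alyref non-KO morula 1 or 2 or blastocyst 1 or 2, that of Setdb1 also without blastocyst 3, and all 4 with ERCC scaling and with the compared groups alone. None of the 21 was called for the loss of Alyref, where 8 had an unadjusted p under 0.05, beside 12.1% of tested genes. The plot of the lists shows the members beside these genes.

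**Figure D4:**
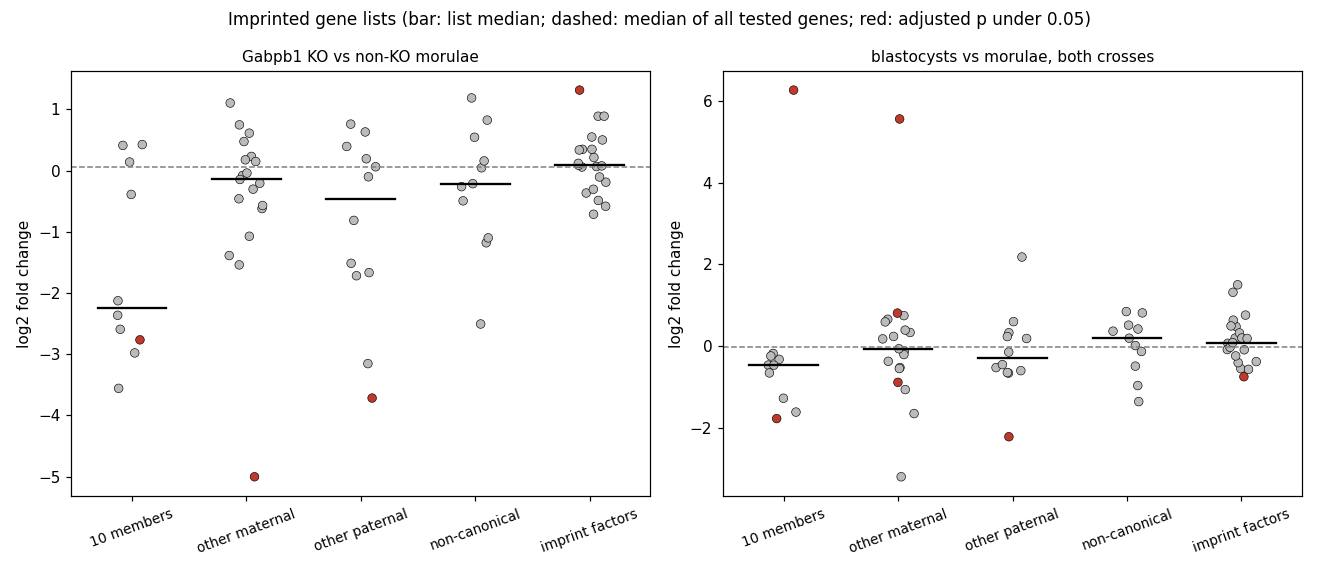
edgeR log2 fold change of each tested gene in the 10 members and 4 further lists, for the loss of Gabpb1 (left) and for blastocysts against morulae over both crosses (right), with list medians (bars), the median of all tested genes (dashed) and called genes in red. On the left the members' bar (-2.24) includes Plagl1, Ascl2 and Peg10, which passed the filter through Gabpb1 non-KO morulae and so had to be high there, and it is not to be read against the other bars. On the right the medians lie between -0.46 and 0.20.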

How the data were processed

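The authors deposited 1 table with a column of read counts per embryo and the exon length of each gene. Although the file is named for FPKM, the authors deposited whole-number counts whose totals differ between embryos. Per the submitters' processing notes, Trimmomatic, Trim Galore, cutadapt, STAR and featureCounts were used with mm10; versions and the strand setting are not given in the sources used here. The 92 ERCC rows were kept out of library sizes. FPKM was computed from counts and deposited length, on plain library totals for the filter and on TMM-scaled totals, as for CPM, for printed levels. edgeR 4.0.16 (R 4.3.3) was fitted to all 19 embryos with 7 group means (12 residual degrees of freedom), and 10 contrasts were tested with Benjamini-Hochberg adjustment. The test was checked on simulated counts. SE was taken from the estimate and its F statistic. The table had been planned as FPKM with limma, with edgeR named for counts. DESeq2 1.42.0, other scalings, no filter, the compared groups alone, a replicate block and single-embryo omission were alternatives. The comparison with the non-KO morulae of both crosses was added after seeing the data. Named genes were the members, called genes of the lists and the 3 highest per length in each list. Members and lists were chosen with earlier results of these data known.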

Additional observations from a re-analysis of the deposited data

Results flagged for a closer look

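Among the listed genes, the effects of the 2 knockouts differed for Pon2 and Suz12 by the test of the difference itself (edgeR, Benjamini-Hochberg). The log2 effect of the loss of Gabpb1 minus that of Alyref was -5.34 for Pon2 (SE 1.18, adjusted p = 0.0432) and 2.03 for Suz12 (SE 0.41, adjusted p = 0.0338). Pon2 was at 30.9 and 14.9 CPM in Alyref KO morulae and 3.09, 8.35 and 10.7 CPM in their non-KO morulae, and Suz12 at 92.8 and 168 CPM against 210, 267 and 166 CPM. The mean of Pon2 was 79.9 CPM in Gabpb1 non-KO, 6.05 CPM in Gabpb1 KO and 7.40 CPM in Alyref non-KO morulae. For Suz12 the means of these groups were 92.6, 231 and 214 CPM. Both effects of the loss of Gabpb1 are read against the same 2 non-KO embryos. The Pon2 call was kept in 2 of 10 fits with 1 embryo left out and the Suz12 call in 4 of 10. With ERCC scaling the adjusted p was 0.194 for Pon2 and 0.917 for Suz12.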

How the results depend on the processing

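No sign of a member's or listed gene's printed called difference reversed under any alternative. The number of members called for the loss of Gabpb1 was 1, against 2 with DESeq2, 0 from the compared groups alone and 0 against all 5 non-KO morulae, and 0 to 1 with 1 embryo left out. For stage over both crosses it was 2, against 1 without TMM, 1 from the compared groups and 1 with the replicate block, and 0 to 3 with 1 embryo left out. For stage in the Alyref cross it was 2, against 0 from the compared groups and 0 with the replicate block, and 0 to 3 with 1 embryo left out. DESeq2 called 1 member for stage in the Gabpb1 cross, 3 between the crosses' non-KO morulae and 1 for the difference of the KO effects, where edgeR called 0. Between those morulae, leaving out 1 embryo gave 0 to 2. The replicate numbers were not taken as pairs in the main fit. Deviations from the group mean of embryos with the same number correlated from -0.156 to 0.168. With so few embryos per group, this cannot tell whether embryos of 1 number shared a litter or a day.

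Over all genes, the 303 calls for the loss of Gabpb1 became 1284 with DESeq2, 26 with ERCC scaling, 0 from the compared groups and 48 to 966 with 1 embryo left out. The 42 for the loss of Alyref became 502, 0, 0 and 0 to 128, with 13 without a filter, 21 without TMM, 8 with the block and 262 against both crosses. The 803 for stage over both crosses became 2369, 1220, 519 and 2 to 2930, with 401 under the block. The 2402 in the Alyref cross became 3762, 352, 24 and 346 to 4560, the 342 between crosses 1709, 2, 0 and 0 to 2435, and the 167 for the difference of KO effects 894, 10, 0 and 16 to 707. DESeq2 called 57 for stage in the Gabpb1 cross, 336 for the difference of the stage changes, and 15 and 42 for the blastocyst comparisons with WT. ERCC scaling moved the median of all genes to -0.40 for the loss of Gabpb1, -0.61 for stage over both crosses and 0.39 between crosses (log2). Of its calls 0 of 26 and 16 of 1220 were higher in the first 2 of these, against 64 of 303 and 313 of 803 with TMM. In the Alyref cross 31 of 352 stage calls were higher, against 1035 of 2402, and between crosses 2 of 2, against 218 of 342. The causes were not tested. Counts under about 3 per embryo limit H19, Ascl2 and Peg10. They also limit Phlda2 in Alyref non-KO blastocysts 2 and 3 (1 count each). For Plagl1 they do so in Alyref KO morula 1 and Gabpb1 KO morula 2 (0 counts each).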

Other observations

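Some imprinted genes were too low per length to pass the filter and be tested but were read. Igf2, the paternal growth factor gene beside H19, had group means of 0.298 (Alyref KO), 0.647 (Alyref non-KO), 0.986 (Gabpb1 KO) and 2.41 CPM (Gabpb1 non-KO) in morulae. In blastocysts its means were 3.64 (Alyref cross), 1.87 (Gabpb1 cross) and 4.68 CPM (WT). Kcnq1ot1, the paternal non-coding RNA that silences the cluster holding Phlda2 and Ascl2, had group means of 7.88 CPM in Alyref non-KO morulae and 31.7 CPM in Gabpb1 non-KO morulae, and 31.4, 20.3 and 37.2 CPM in the Alyref-cross, Gabpb1-cross and WT blastocysts. Zim1 and Slc22a2 had 0 counts in all 19 embryos.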
